A study of Homo sapiens with 6 samples.

Results

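Transcripts of the Hippo effectors and of genes they control were followed in ferroptosis-damaged RPE cells given vitamin K1 (VK1). The set holds 10 genes, taken by gene name from the 33496 genes of the FPKM files: the co-activators YAP1 and WWTR1 (which encodes TAZ), the DNA-binding partners TEAD1 and TEAD4, the kinase gene LATS2, and the targets CCN1, CCN2, ANKRD1, AMOTL2 and AJUBA. All 10 were found, and all 10 passed the filter on low values, which asked for 1 FPKM or more on average.

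In the Hippo pathway, the kinases MST1 and MST2 (genes STK4 and STK3) activate LATS1 and LATS2, which phosphorylate YAP and TAZ and hold them in the cytoplasm. Unphosphorylated YAP and TAZ enter the nucleus, bind TEAD proteins and switch on genes of growth, adhesion and matrix such as CCN1 and CCN2, as well as genes of their own inhibitors. YAP and TAZ respond to cell density and tension, and in epithelial cells the pathway is known to set sensitivity to ferroptosis, the iron-dependent death by lipid peroxidation. Phosphorylation and localisation of YAP and TAZ cannot be read from transcript levels.

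RNA-seq was performed on ARPE-19, an established line of human RPE cells, in 6 libraries. In the Era group (3 libraries), the cells received erastin (5 µM, 24 h), an inhibitor of cystine uptake that triggers ferroptosis. In the Era+VK group (3 libraries), VK1 (10 µM) was given 1 h ahead of the same erastin treatment. The series holds no library of erastin-free cells. The comparison is therefore of VK1 on a background of erastin in both groups, and no value describes what erastin itself did to the pathway. The labels do not say whether the 3 libraries of a group came from separate cultures, so p-values measure only the spread between these samples. The cell line field of the labels counts up from ARPE-19 across the samples, while the titles give ARPE-19 for all 6.

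The values are FPKM (fragments per kilobase, scaled to library size), which may be set side by side between genes. Differences between the groups are log2 fold changes of Era+VK against Era on log2(FPKM + 1), tested with limma, and a gene is called when its adjusted p (Benjamini-Hochberg over 11981 tested genes) is under 0.05. Sequencing depth is unknown, since the files hold no counts. The defining RPE genes RPE65 and RLBP1 were at or near 0 FPKM in all 6 libraries. The RPE regulators OTX2 and MITF stood at 27.50 to 31.35 and 15.49 to 18.59 FPKM, and BEST1 spread from 0.60 to 56.98 FPKM. Of 7 RPE markers tested, MITF and KRT8 had every Era+VK library above every Era library, beside 15.1% of all tested genes. Neither was called (differences 0.19 and 0.15, limma adjusted p = 0.151 and 0.270). CDH1 (E-cadherin) was at 0.02 to 0.04 FPKM, while CDH2 (N-cadherin) stood at 43.78 to 45.43 FPKM. One pair of libraries stood apart: 14 erythroid genes, mostly globins, summed to 0.31 to 0.63 FPKM in Era and to 0.40, 240.6 and 233.6 FPKM in Era+VK replicates 1, 2 and 3. In bulk RNA, fewer cells of a type and less RNA per cell cannot be told apart.

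Sequence just upstream of the start was examined first for the short element that TEAD proteins bind. Sequence farther from the start was not searched. Promoter windows from RefSeq on GRCh38.p14 were held for 7 of the 10 genes (10 windows, since some genes have 2 starts), and not for TEAD1, TEAD4 and CCN1. The letters CATTCC, or GGAATG on the other strand, the core of the TEAD element, occurred in 5 windows of 5 genes: CCN2, ANKRD1, AMOTL2, AJUBA and YAP1. The same letters occurred in 11.9% of 35116 windows of 250 bases before a start, and a match in these letters is a description and not a bound site. The CCN2 promoter is shown as a stretch because it held 3 matches, a number reached by 0.0826% of windows, and the capitals mark the TEAD core in every sequence below.

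CCN2, chr6:131951423-131951572, minus strand, bases -200 to -51 from the start: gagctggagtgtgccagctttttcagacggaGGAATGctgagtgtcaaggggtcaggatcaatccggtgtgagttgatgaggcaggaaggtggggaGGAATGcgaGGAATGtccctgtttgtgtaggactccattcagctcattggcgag
ANKRD1, chr10:90921290-90921319, minus strand, distal match: atcaccaccaaaGGAATGgccctctcacat
ANKRD1, chr10:90921198-90921227, minus strand, proximal match: gacactgagtctGGAATGaaaattcacctg
AMOTL2, chr3:134374499-134374528, minus strand: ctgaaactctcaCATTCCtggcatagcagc
AJUBA, chr14:22976884-22976913, minus strand: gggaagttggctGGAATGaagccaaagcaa
YAP1, chr11:102110273-102110302, plus strand: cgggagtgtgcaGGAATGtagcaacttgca

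In CCN2 the matches began at bases -169, -104 and -95 from the start, so the proximal pair lay 3 bases apart on the same strand. In ANKRD1 the 2 matches began at bases -220 and -128. Between them, at -195, lay TGATTCA, a match to a loose AP-1 pattern (TGANTCA, present in 6.57% of all windows). The pattern accepts any base at its centre, here T, so the match is not taken as an AP-1 element. AMOTL2, AJUBA and YAP1 held 1 match each, at bases -69, -59 and -162. For AMOTL2 and AJUBA it lay before only 1 of their 2 starts. In both this was the start farther inside the gene, at 134374447 for AMOTL2 and 22976842 for AJUBA. The windows before the outer starts, at 134375417 and 22982551, held none. The windows of WWTR1 and LATS2 held none, which says only that these letters are not in these windows.

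**Figure D1:**
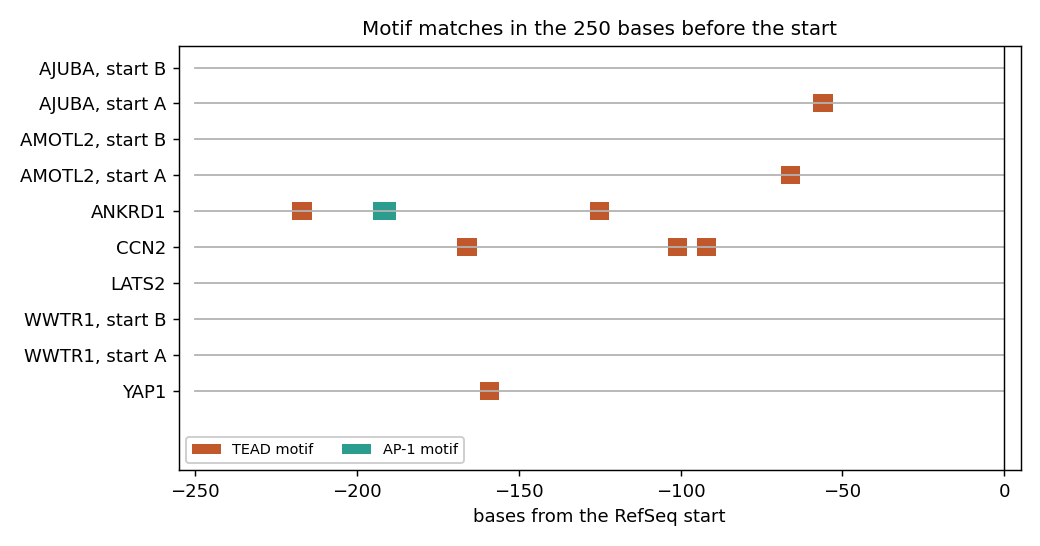
Matches to the TEAD core (orange) and the loose AP-1 pattern TGANTCA (green) along the 250 bases before each RefSeq start. The x axis gives distance from the start in bases, with 1 line per window. CCN2 holds 3 TEAD matches and ANKRD1 holds 2 TEAD matches and 1 AP-1 match; genes with 2 starts have a line for each.

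Across the 10 genes, no transcript passed the test between Era+VK and Era: 0 of 10 were called, against 0.618% of all tested genes (74 of 11981). At that share 0 calls in 10 genes is the usual outcome, so the count by itself says little. The differences were small in either direction, with 4 positive and 6 negative values between -0.14 (CCN2) and 0.22 (TEAD4) and a median of -0.02, beside a median of 0.03 over all tested genes. At an unadjusted p under 0.05 limma gave 1 of the 10 genes, TEAD4, against 15.8% of all tested genes. The smallest absolute difference of any called gene was 0.26, and the 95% intervals of YAP1, WWTR1, TEAD1, LATS2, CCN1, AMOTL2 and AJUBA lay wholly inside that size in both directions, while those of CCN2, ANKRD1 and TEAD4 reached past it.

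**Figure D2:**
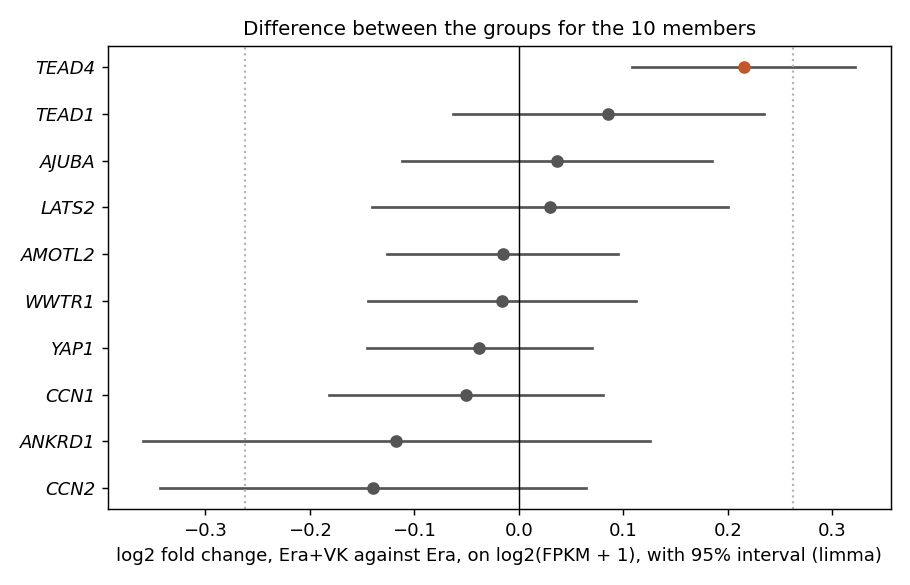
Log2 fold change of Era+VK against Era on log2(FPKM + 1) for the 10 genes (x axis), with the 95% interval from limma as a line; dotted lines mark 0.26, the smallest absolute difference of a called gene. The interval of TEAD4 (orange, the gene whose groups do not overlap) runs from 0.11 to 0.32, and the other 9 intervals include 0.

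The co-activators were expressed at moderate and steady levels. YAP1 (chr11:102110461-102233423, GRCh38, GENCODE 29) had 29.42, 30.04 and 28.36 FPKM in Era and 28.23, 27.53 and 29.73 FPKM in Era+VK. The groups overlapped, and the difference was -0.04 (95% interval -0.15 to 0.07, limma adjusted p = 0.734), which holds the Era+VK level between 0.904 and 1.05 times that of Era on the FPKM + 1 scale.

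WWTR1 (chr3:149517235-149736714), the gene of the YAP paralog TAZ, had 12.71, 12.86 and 11.42 FPKM in Era and 12.46, 11.81 and 12.24 FPKM in Era+VK. Its difference was -0.02 (95% interval -0.14 to 0.11, limma adjusted p = 0.919), and Era replicates 2 and 3 were the highest and lowest of the 6 libraries. YAP1 stood above WWTR1 in every library, at 2.27 to 2.48 times its FPKM, and this ratio averaged 2.38 ± 0.0919 in Era and 2.34 ± 0.0822 in Era+VK (SD, n = 3).

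**Figure D3:**
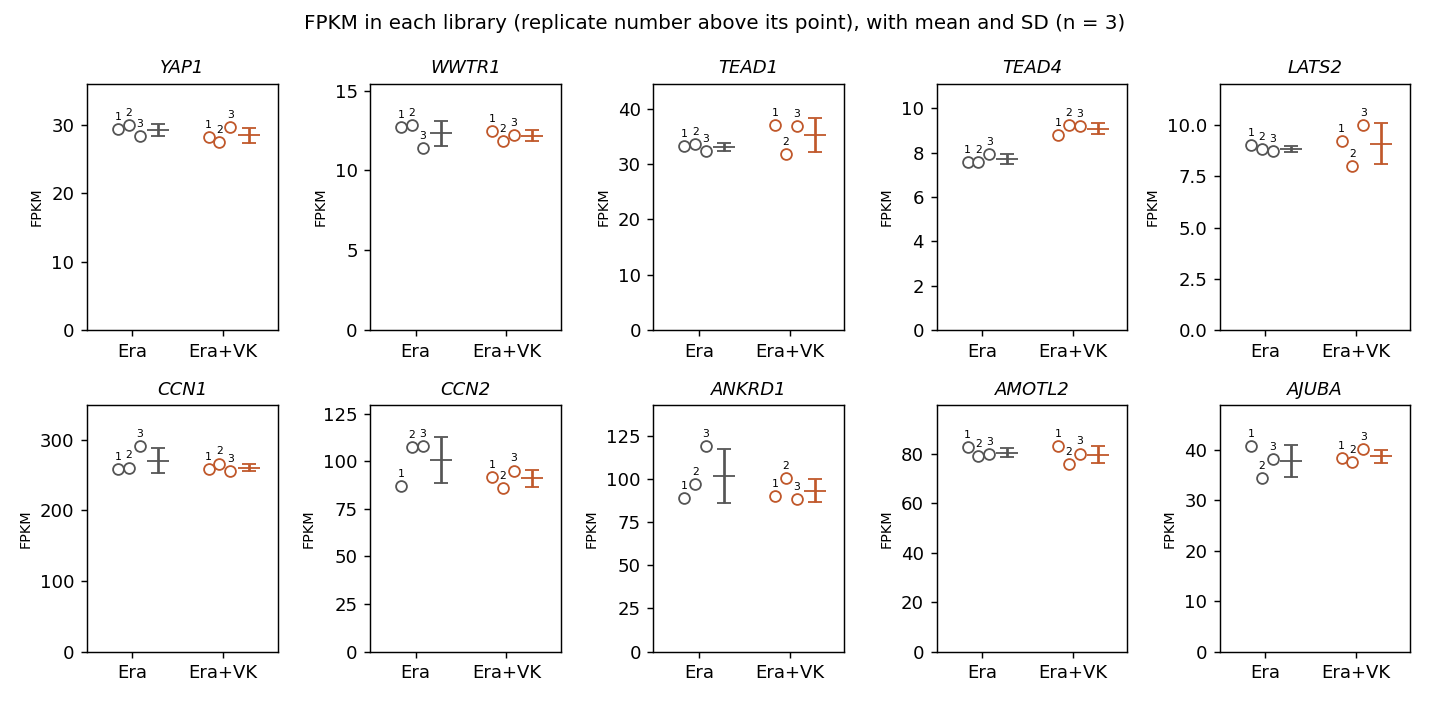
FPKM (y axis, from 0, a scale of its own for each gene) of the 10 genes in the 3 Era (grey) and 3 Era+VK (orange) libraries, numbered by replicate, with the mean and SD beside the points. The groups overlap for every gene but TEAD4, whose Era+VK libraries sit at 8.80 to 9.26 FPKM and whose Era libraries sit at 7.56 to 7.95 FPKM.

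TEAD4 was the gene that differed most. TEAD4 (chr12:2959330-3040673), 1 of 4 paralogous TEAD factors that give YAP and TAZ their DNA contact, had 7.56, 7.56 and 7.95 FPKM in Era and 8.80, 9.26 and 9.20 FPKM in Era+VK. Every Era+VK library was above every Era library, a separation in this direction shown by 15.1% of all tested genes, and the mean was 18.2% higher in Era+VK.

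The log2 fold change of TEAD4 was 0.22 (SE 0.0459, 95% interval 0.11 to 0.32) with a limma p of 0.00174, which missed the threshold after adjustment (adjusted p = 0.0937). An exact two-sided permutation test of 3 against 3 libraries gave p = 0.1, the smallest that this design allows. Era+VK replicate 1, in which the erythroid genes were near 0, was also above all 3 Era libraries, and with that library alone as Era+VK the difference was 0.17 (limma adjusted p = 0.296, with the spread taken from the Era libraries alone).

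TEAD1 (chr11:12674591-12944483), the most abundant TEAD transcript, had 33.23, 33.67 and 32.30 FPKM in Era and 37.11, 31.75 and 36.82 FPKM in Era+VK. Era+VK replicate 2 was the lowest of the 6 libraries and replicates 1 and 3 the highest, so the groups overlapped (difference 0.09, 95% interval -0.06 to 0.23, limma adjusted p = 0.554). The difference was 0.16 without Era+VK replicate 2 (limma adjusted p = 0.107), 0.047 without replicate 1 and 0.053 without replicate 3. For the remaining paralogs, TEAD3 averaged 9.38 ± 0.921 FPKM in Era and 8.81 ± 0.261 in Era+VK, and TEAD2 averaged 2.40 ± 0.153 and 2.41 ± 0.345 FPKM (SD, n = 3), with differences of -0.08 and 0.00026.

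Of the summed TEAD FPKM, TEAD1 held 60.8% to 64.6% in every library. TEAD4 held 14.6% ± 0.324 in Era and 16.4% ± 1.32 in Era+VK (SD, n = 3), and the groups did not overlap (exact permutation p = 0.1). TEAD3 held 17.8% ± 1.51 and 15.9% ± 1.03, and its groups overlapped. The sum itself was 52.5 ± 0.830 FPKM in Era and 55.5 ± 3.17 in Era+VK and also overlapped.

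**Figure D4:**
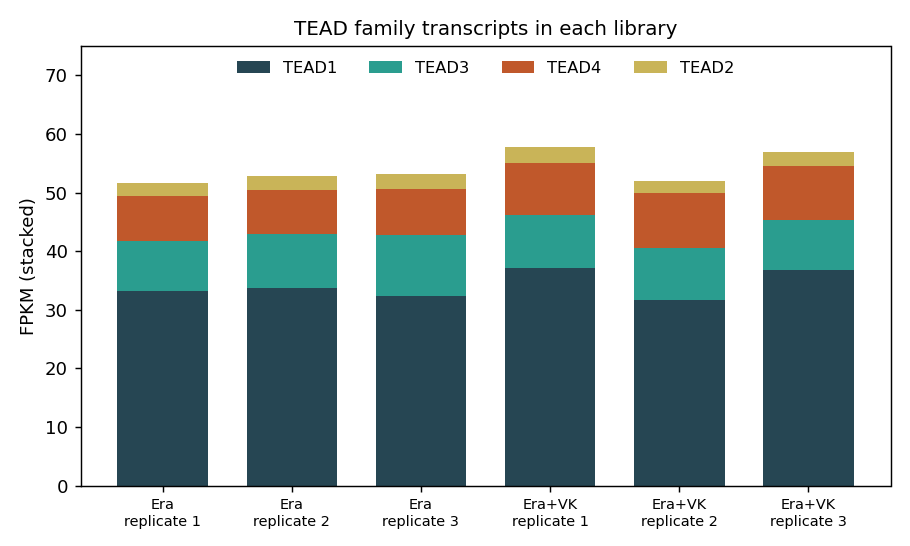
FPKM of TEAD1, TEAD3, TEAD4 and TEAD2 stacked in each of the 6 libraries (y axis, FPKM). TEAD1 makes up 60.8% to 64.6% of each bar, and the TEAD4 part spans 7.56 to 7.95 FPKM in Era and 8.80 to 9.26 in Era+VK.

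LATS2 (chr13:20973032-21061547) encodes the kinase that phosphorylates YAP and TAZ and is itself a YAP target. It had 9.02, 8.82 and 8.72 FPKM in Era and 9.22, 8.03 and 10.03 FPKM in Era+VK. The Era+VK libraries held both the lowest and the highest value, and the difference was 0.03 (95% interval -0.14 to 0.20, limma adjusted p = 0.879). Its paralog LATS1 was lower, at 4.29 ± 0.344 FPKM in Era and 4.60 ± 0.208 in Era+VK (SD, n = 3), with LATS2 at 1.84 to 2.18 times LATS1 in every library.

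The targets CCN1, CCN2, ANKRD1 and AMOTL2 were expressed above every regulator described so far, in all 6 libraries. CCN1 (chr1:85580761-85583962), a secreted matrix protein also called CYR61, had 259.05, 260.70 and 290.55 FPKM in Era and 258.51, 266.37 and 256.33 FPKM in Era+VK. The groups overlapped (difference -0.05, 95% interval -0.18 to 0.08, limma adjusted p = 0.707), with Era replicate 3 above the other 5 libraries.

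CCN2 (chr6:131948176-131951373), the connective tissue growth factor and the gene with the 3 TEAD core matches printed above, had 86.78, 107.51 and 107.72 FPKM in Era and 91.56, 86.05 and 95.08 FPKM in Era+VK. Era replicates 2 and 3 were above every Era+VK library, but Era replicate 1 lay among them. The difference was -0.14 (95% interval -0.34 to 0.06, limma adjusted p = 0.477), so the interval spans 0.788 to 1.05 times the Era level on the FPKM + 1 scale. It was -0.24 without Era replicate 1, -0.089 without Era replicate 2 and -0.088 without Era replicate 3.

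ANKRD1 (chr10:90912096-90921276), an ankyrin-repeat protein of muscle and stretched cells, had 88.93, 97.21 and 118.76 FPKM in Era and 90.32, 100.70 and 88.28 FPKM in Era+VK. Its difference was -0.12 (95% interval -0.36 to 0.13, limma adjusted p = 0.622), and it ran from -0.21 without Era replicate 1 and -0.17 without Era+VK replicate 2 to -0.000498 without Era replicate 3. Era replicate 3 was the highest of the 6 libraries for CCN1, CCN2 and ANKRD1 alike. The spread between libraries of a group was wide for ANKRD1 and CCN2, with a within-group SD of 0.166 and 0.135 on the log2 scale, above that of 90.6% and 84.4% of tested genes.

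AMOTL2 and AJUBA feed back on the pathway: AMOTL2 encodes an angiomotin that binds and retains YAP, and AJUBA a LIM protein that restrains LATS kinases. AMOTL2 (chr3:134355874-134375479) had 82.91, 79.12 and 79.87 FPKM in Era and 83.10, 76.04 and 80.23 FPKM in Era+VK. AJUBA (chr14:22971174-22982642) had 40.61, 34.43 and 38.12 FPKM in Era and 38.24, 37.59 and 40.07 FPKM in Era+VK. The groups overlapped for both, with differences of -0.02 (95% interval -0.13 to 0.09, limma adjusted p = 0.905) and 0.04 (95% interval -0.11 to 0.18, limma adjusted p = 0.825).

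Ordered by mean FPKM over the 6 libraries, the genes ran CCN1, ANKRD1, CCN2, AMOTL2, AJUBA, TEAD1, YAP1, WWTR1, LATS2 and TEAD4. Neighbours whose ranges overlapped were ANKRD1 and CCN2, AJUBA and TEAD1, and LATS2 and TEAD4. CCN1, at a mean of 265.3 FPKM, ranked above 99.3% of tested genes, while TEAD4, at 8.39 FPKM, ranked above 60.9%.

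No transcript passed in a list of further pathway genes. Of 30 further Hippo genes present in the files, 27 were tested and 0 were called by limma, beside 0.618% of all tested genes. At that share 0 calls in 27 genes is also the usual outcome. At an unadjusted limma p under 0.05 there were 3, beside 15.8% of all tested genes. Negative values made up 25.9% of the 27, beside 36.8% of all tested genes, and the median was 0.06, beside 0.03. WWC2, a scaffold of the LATS kinases, had 21.63, 20.87 and 21.42 FPKM in Era and 25.61, 22.10 and 26.22 FPKM in Era+VK (difference 0.20, limma adjusted p = 0.218). VGLL4, a cofactor that competes with YAP for TEAD, had 15.15, 15.10 and 14.31 FPKM in Era and 17.09, 17.18 and 15.95 FPKM in Era+VK (difference 0.16, limma adjusted p = 0.188).

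Of the 27 genes, 3 were separated in the higher direction (beside 15.1% of all tested genes), namely WWC2, VGLL4 and the LIM protein gene WTIP (difference 0.13). In the lower direction 1 was separated (beside 7.04%), FRMD6, an upstream regulator named here after its values were seen, with 10.85, 10.89 and 10.37 FPKM in Era and 9.43, 9.54 and 10.30 FPKM in Era+VK (difference -0.12). Among the other genes named, NF2, the gene of the upstream regulator merlin, differed by 0.11. The MST genes STK3 and STK4 differed by 0.13 and 0.05, LATS1 by 0.08 and the TEAD cofactor gene VGLL3 by -0.06. In the KEGG Hippo pathway as annotated in the deposited files, which holds 7 of the 10 genes described here, 106 genes were tested. Of these 1 was called, TGFB2, beside 0.618% of all tested genes, and the median was 0.05, beside 0.03.

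A wider list of YAP/TAZ target genes held the 2 that passed. TGFB2, a TGF-β ligand, had 47.58, 46.99 and 48.45 FPKM in Era and 38.57, 38.98 and 37.29 FPKM in Era+VK, and it fell by 0.31 on the log2 scale (SE 0.0397, limma adjusted p = 0.0213). IGFBP3, a secreted binding protein of insulin-like growth factors, had 48.02, 44.94 and 55.34 FPKM in Era and 35.02, 34.02 and 33.70 FPKM in Era+VK, and it fell by 0.51 (SE 0.0733, limma adjusted p = 0.0331). In both genes all Era+VK libraries, replicate 1 included, were below all Era libraries.

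With Era+VK replicate 1 alone as the treated group, the differences were -0.30 for TGFB2 and -0.48 for IGFBP3. The lone library was assumed to vary like the Era libraries, and neither gene was called (limma adjusted p = 0.109 and 0.188). Leaving out any 1 of the 6 libraries also ended the call of IGFBP3, and leaving out any 1 but Era+VK replicate 2 ended that of TGFB2, with limma adjusted p up to 0.129 and 0.121. The differences themselves stayed between -0.58 and -0.43 for IGFBP3 and between -0.32 and -0.29 for TGFB2 when 1 library was left out.

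In that list 19 of 21 genes were tested, and 2 were called, both lower in Era+VK, where 0.484% of all tested genes were called in that direction. Negative values were found for 17 of the 19 genes, beside 36.8% of all tested genes, and the median was -0.08, beside 0.03. The groups did not overlap in the lower direction for 9 of the 19 (beside 7.04%) and in the higher direction for 1 (beside 15.1%). TGFB2 and IGFBP3 also answer to other regulators, TGF-β among them, and the lists were chosen with earlier results known, so the counts are descriptions.

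**Figure D5:**
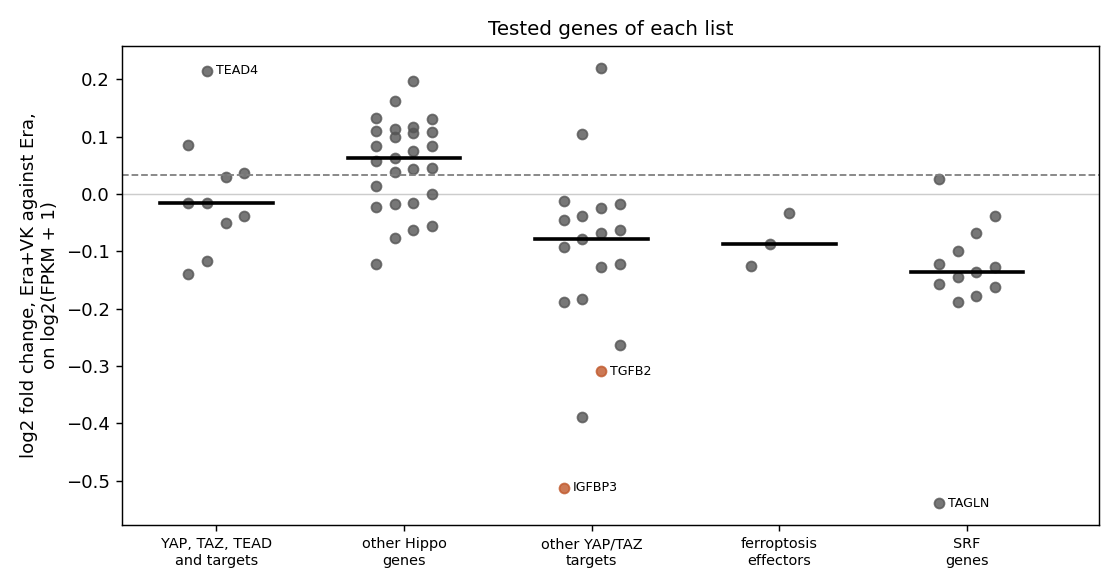
Log2 fold change of Era+VK against Era on log2(FPKM + 1) for each tested gene of 5 lists (points), with the median of the list (black bar) and of all 11981 tested genes (dashed line, 0.03). The 2 called genes, TGFB2 and IGFBP3, are in orange among the other YAP/TAZ targets, whose median is -0.08; the 10 genes at the left have a median of -0.02, and TEAD4 and TAGLN are also named.

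Genes tied to YAP, TAZ and TEAD in ferroptosis were looked at next. Of 6 such genes, 3 were tested and 0 were called by limma (1 at an unadjusted p under 0.05), too few to set against the shares of 0.618% and 15.8% over all tested genes. TFRC, the transferrin receptor that brings in iron, had 29.55, 29.44 and 28.96 FPKM in Era and 26.14, 25.84 and 28.43 FPKM in Era+VK, without overlap of the groups, as for 7.04% of all tested genes in this direction (difference -0.13, limma adjusted p = 0.270). ACSL4, which loads polyunsaturated fatty acids into phospholipids, overlapped between the groups (difference -0.09), as did the membrane protein gene EMP1 (difference -0.03).

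Genes of the serum response factor (SRF), a regulator that answers to actin and shares targets with YAP, were compared as the closest other programme. Of 14 SRF genes in the files, 13 were tested and 0 were called by limma, beside 0.618% of all tested genes. For 13 genes this count too is the usual outcome at that share. At an unadjusted limma p under 0.05 there were 7, beside 15.8% of all tested genes. Negative values were found for 12 of the 13, beside 36.8% of all tested genes, the median was -0.14, beside 0.03, and the groups did not overlap in the lower direction for 9, beside 7.04%. TAGLN, an actin-binding protein of smooth muscle, had 10.40, 9.32 and 12.86 FPKM in Era and 7.04, 6.83 and 7.45 FPKM in Era+VK (difference -0.54, limma adjusted p = 0.0715). CNN2 (calponin) and TPM4 (tropomyosin) differed by -0.19 and -0.18, and all 3 were among the 9.

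The genes with the most similar pattern over the 6 libraries were sought for CCN2 and YAP1, using the root mean square of the difference between their deviations from the mean on log2(FPKM + 1). For CCN2 these were SRM (0.0390), ARHGDIA (0.0416) and PPRC1 (0.0433), where the deviations of CCN2 itself had a root mean square of 0.131. CCN1 was at 0.113 from CCN2 (rank 842 among the other tested genes) and ANKRD1 at 0.129 (rank 1994). The target genes described here were thus not among the 3 nearest to it. With 11981 tested genes and only 6 libraries, some close patterns are found whatever the gene. For YAP1, the nearest were EPG5 (0.0129), NMD3 (0.0149) and FBXO31 (0.0152), beside a root mean square of 0.0436 for YAP1.

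The TEAD matches were also set beside the comparison. Of the tested genes with at least 3 matches before a start, CCN2 among them, the median difference was -0.05 over 7 genes, a number too small for its count of calls to be read. The medians were 0.03 over 7855 genes with no match, 0.03 over 1081 genes with 1 match and 0.03 over 79 genes with 2 matches, the class of ANKRD1. Called were 0.586%, 0.463% and 1.27% of these classes, the last being 1 gene.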

How the data were processed

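ARPE-19 libraries were sequenced as 2 × 150 bp paired ends on an Illumina NovaSeq instrument, per the study's methods. The authors deposited 1 FPKM value per gene and library with 2 decimals. The submitters' processing notes name cutadapt, HISAT2, StringTie 2.1.6 and the mouse build mm10, whereas the identifiers are human Ensembl genes; annotation and filters are not given in the sources used here. Since FPKM scale with the total of a library, abundant genes shift all others, and paralogs such as TEAD1 to TEAD4 may share fragments.

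The 11981 genes averaging 1 FPKM or more entered limma 3.58.1 in R 4.3.3 (lmFit, eBayes with a trend) on log2(FPKM + 1), with 3 Era against 3 Era+VK libraries, no replicate block and a threshold of 0.05 on the adjusted p. Fold changes on this scale understate those of low genes. Count models were not used, because the values are FPKM. In a later check the low values fell on no clear whole-read steps (concentration 0.394 to 0.435, where 1 means all on a step). The fit was tested on simulated data.

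The members and lists were chosen with earlier results of these data known. Genes named were the 10 genes, the called genes of each other list or else its 3 largest differences, 10 pathway genes (TEAD2, TEAD3, LATS1, NF2, STK3, STK4, VGLL3, VGLL4, TFRC, ACSL4), and the 3 genes most like CCN2 and YAP1. CDH1, CDH2 and the marker genes came from the lists. The values of 1 listed gene are not reported here. Among other cell types, endothelial markers summed to 0.69 to 1.11 FPKM, and leukocyte markers, nearly all CD68, to 43.39 to 50.86 FPKM in Era and 34.60 to 38.44 FPKM in Era+VK; their part in the results was not tested. RPE markers summed to 450.3 to 545.3 FPKM, mostly from the keratin genes KRT8 and KRT18. Of the 15 RPE markers in the files, 8 averaged under 1 FPKM. Gene positions are from GENCODE 29 (GRCh38), matched by identifier for 11893 genes tested. Promoter windows, of 250 bases before each start, are from RefSeq (GRCh38.p14). They were searched for the TEAD core, the loose AP-1 pattern and the CArG box, which SRF binds (0 matches among the members' windows).

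Alternatives were a pseudocount of 0.1, no filter, at least 1 FPKM in every library, no trend, quantile normalization, rescaling without mitochondrially encoded genes, a replicate block, Era+VK replicate 1 alone, and each library left out in turn.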

Additional observations from a re-analysis of the deposited data

How the results depend on the processing

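Under all 14 alternatives 0 of the 10 genes were called. Few of all tested genes were called under any of them, as given below, so a count of 0 in 10 was likely throughout. TEAD4 stayed between 0.17 and 0.24 with a limma adjusted p of 0.0895 to 0.296. The number of all tested genes called was 122 with at least 1 FPKM in every library, 112 after quantile normalization, 44 without a trend, 42 with the replicate block, 35 with Era+VK replicate 1 alone, 1 with no filter, and 2 to 70 when 1 library was left out. The 2 other targets called became 0 without a trend, with no filter, with Era+VK replicate 1 alone and with the replicate block, and 0 to 1 when 1 library was left out. The SRF genes called became 1 (TAGLN, limma adjusted p = 0.0470) with at least 1 FPKM in every library. Median differences moved as well. That of all tested genes was 0.0048 after quantile normalization and 0.0079 with no filter, and that of the other Hippo genes was 0.026 after quantile normalization. The median of the 10 genes ran from -0.032 to 0.019. Those of the other targets and of the SRF genes stayed negative, at -0.11 to -0.054 and -0.17 to -0.10.

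Small uncalled differences changed sign. With Era+VK replicate 1 alone, WWTR1 was 0.016, AMOTL2 0.043 and VGLL3 0.048. After quantile normalization, LATS2 was -0.0092, AMOTL2 0.0040 and TEAD2 -0.036. TEAD2 was -0.0016 with a pseudocount of 0.1 and -0.00048 after rescaling. When 1 library was left out, the values ranged from -0.066 to 0.013 for WWTR1, -0.036 to 0.11 for LATS2, -0.080 to 0.0027 for CCN1, -0.045 to 0.018 for AMOTL2, -0.026 to 0.090 for AJUBA, -0.060 to 0.0029 for EMP1, -0.071 to 0.075 for TEAD2 and -0.11 to 0.033 for VGLL3. The causes were not tested.

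The deviations of same-numbered libraries correlated weakly (0.0709, 0.103 and 0.021), beside -0.114 to 0.0401 for libraries of different numbers. The same-numbered values were all positive, but Era replicate 3 correlated best with Era+VK replicate 1 (0.0401). The replicate numbers were not taken as a pairing, and these correlations do not exclude one. Depth is unknown, and with 3 libraries a group no gene with an absolute difference under 0.26 was called.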
